A study of Mus musculus with 6 samples.

Results

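The 7 integrin subunit genes Itgb1, Itgb3, Itgb5, Itga3, Itga5, Itga6 and Itgav and the adhesion gene Vcam1 were taken by symbol from a table of 24181 genes, so that 8 of 24181 genes are described. All 8 have a row in the table. The RNA came from MC38, a colon adenocarcinoma line of the mouse kept in standard DMEM, and its poly(A) fraction was sequenced in bulk from the 3' end (SCRB-seq). The labels give 6 samples in 2 groups of 3, parental MC38 cells of genotype WT and MC38 cells expressing STING-N153S, a mutant of the adaptor that relays cytosolic DNA sensing. Only the 3 parental libraries, replicates 1 to 3, were analysed, since the names of the other 6 columns, 2 sets of 3, did not tie a column to a single STING-N153S sample. No difference between genotypes is therefore given. The labels do not say whether the parental cells were a clone or whether the replicates were separate cultures, so the spread between them may be technical.

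Integrins are receptors made of 1 alpha and 1 beta chain that cross the plasma membrane, bind matrix proteins or counter-receptors outside the cell and link them to actin inside it. The beta 1 chain pairs with many alpha chains, while beta 3 and beta 5 pair with alpha v. Alpha 5 and alpha v form receptors for ligands that carry the tripeptide RGD, such as fibronectin, and alpha 3 and alpha 6 form laminin receptors. VCAM1 is an immunoglobulin family protein that integrins with an alpha 4 or alpha 9 chain bind, and it is best known from inflamed endothelium, where NF-kB signalling induces it.

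Promoter sequences of RefSeq on GRCm38.p6, from 250 bases before to 50 after a gene's start, were matched by symbol for 5 of the 8 genes (Itgb1, Itgb5, Itga3, Itga5 and Itgav) and for none of Itgb3, Itga6 and Vcam1. Of these 5 genes, the promoters of the highest, of the other beta chain gene and of the lowest alpha chain gene are shown. They were taken because the levels given below span a wide range across them. Capitals mark GGGCGG, the core of the box that SP1 factors bind, on either strand (CCGCCC on the printed strand).
Itgb1 (chr8:128685404-128685703, plus strand): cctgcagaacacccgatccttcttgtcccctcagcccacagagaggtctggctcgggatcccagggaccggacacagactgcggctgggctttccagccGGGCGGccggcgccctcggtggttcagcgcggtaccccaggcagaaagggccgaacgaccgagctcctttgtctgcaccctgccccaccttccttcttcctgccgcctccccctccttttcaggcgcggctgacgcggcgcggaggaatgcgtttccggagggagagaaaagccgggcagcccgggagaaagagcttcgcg
Itgb5 (chr16:33829415-33829714, plus strand): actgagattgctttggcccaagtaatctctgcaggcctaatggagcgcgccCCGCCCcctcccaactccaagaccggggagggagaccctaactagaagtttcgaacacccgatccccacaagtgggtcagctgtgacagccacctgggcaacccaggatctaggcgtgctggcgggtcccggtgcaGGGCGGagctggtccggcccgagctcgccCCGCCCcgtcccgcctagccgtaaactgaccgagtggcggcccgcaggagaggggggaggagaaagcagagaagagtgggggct
Itga5 (chr15:103366742-103367041, minus strand): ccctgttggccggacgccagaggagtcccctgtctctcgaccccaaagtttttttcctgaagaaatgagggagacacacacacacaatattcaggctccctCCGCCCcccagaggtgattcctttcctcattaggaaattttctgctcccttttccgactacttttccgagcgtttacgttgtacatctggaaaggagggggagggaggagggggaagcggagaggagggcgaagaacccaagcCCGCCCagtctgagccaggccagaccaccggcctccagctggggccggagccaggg

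GGGCGG occurred 1 time in the Itgb1 window, 3 times in that of Itgb5 and 2 times in that of Itga5. It was present in all 6 windows of the 5 matched genes, Itga3 having 2 annotated starts, and in 35.7% of the 32851 RefSeq promoter windows of this length. The TATAAA motif was in none of the 6 windows on either strand and in 13.6% of all windows. The share of G and C was 67.3% for Itgb1, 65.7% for Itgb5 and 58.7% for Itga5, beside a median of 52.7% over all windows. In the windows not printed, GGGCGG occurred 1 time for Itgav, and 3 times and 1 time for the 2 starts of Itga3. Whether these motifs relate to the levels was not tested.

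Levels are given in CPM, in which each gene's count is rescaled by the total of its library. Reads came from the 3' end of the cDNA, per the labels' protocols, so a longer transcript does not give more counts and levels were not divided by length. The libraries held 3210024 to 4020023 counts and 16224 to 16892 genes with a count. A total of 3 counts is about the 1-sided 95% upper limit that counting error leaves for a gene with 0 counts. It equals 0.746 to 0.935 CPM in 1 library and 0.283 CPM over the 3 together. The test between libraries takes each count as a separate molecule, which no source used here states. Across all genes, 311 of 11118 tested, or 2.80%, differed between the 3 libraries beyond counting noise (chi-square test of counts, Benjamini-Hochberg adjusted p below 0.05). In 192 of them replicate 3 lay farthest from the median library, and without it 61 genes differed. In bulk RNA, fewer cells of a type and less RNA per cell cannot be told apart.

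Among the 8 genes, 7 reached a mean of 1 CPM, 6 reached 10 CPM and 2 reached 100 CPM, beside 49.5%, 31.2% and 8.54% of all 24181 genes. Their median level was 13.2 CPM and that of all genes 0.941 CPM. The genes were proposed with levels in these libraries known, so these counts are a description. The levels fell into 3 tiers, Itgb1 and Vcam1 above 100 CPM, 5 chains between 5.30 and 23.8 CPM in each library, and Itgb3 with no count.

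**Figure D1:**
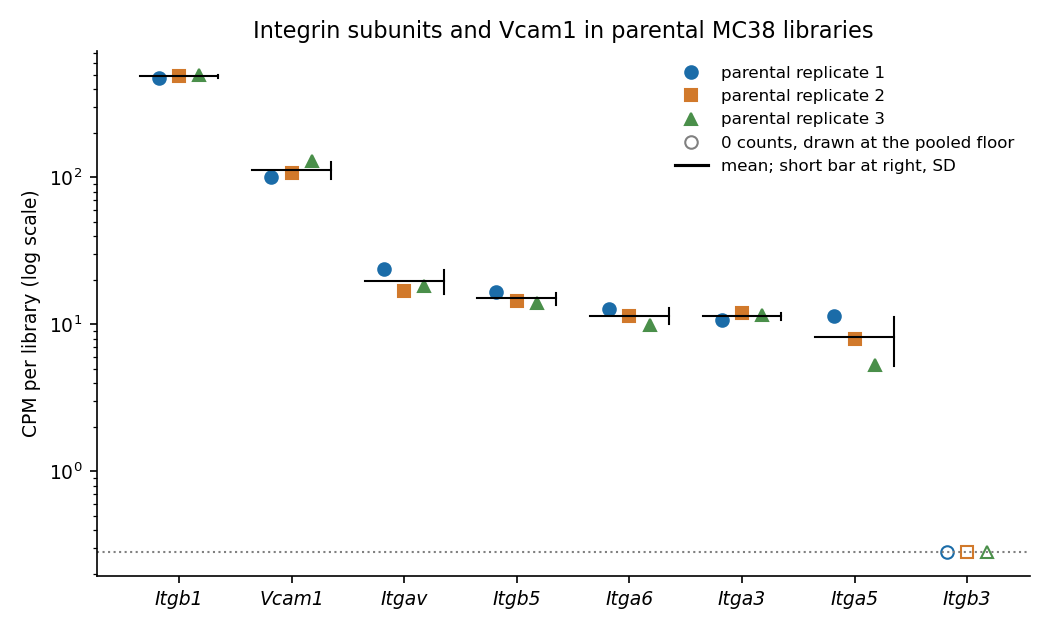
Level of each gene in CPM (log axis) in parental replicates 1, 2 and 3 (points), with the mean as a line and the SD as a bar at its right end. Open symbols are 0 counts, drawn at the dotted line, the 3-count floor of 0.283 CPM over the 3 libraries; Itgb1 is near 488 CPM, Vcam1 near 113 CPM, the next 5 genes lie between 5.30 and 23.8 CPM, and Itgb3 has no count.

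Of the beta chains, Itgb1 (chromosome 8, 128685654 to 128733200, plus strand, GRCm38), the common partner of most matrix-binding alpha chains, stood highest. It had 1598, 1961 and 1607 counts, equal to 475.8, 488 and 501 CPM, in replicates 1 to 3. The mean was 488 ± 12.4 CPM (SD, n = 3). The 3 libraries lay within 1.05-fold of each other, and its mean ranked 355 among all genes of the table. Its coefficient of variation, 2.55%, was close to the 2.41% that counting alone gives at this depth.

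Itgb5 (chromosome 16, 33829665 to 33949338, plus strand), whose product pairs with alpha v in a vitronectin receptor, had 56, 58 and 45 counts. Its level was 16.7, 14.4 and 14.02 CPM, and averaged 15.04 ± 1.43 CPM (SD, n = 3). The count of Itgb1 exceeded that of Itgb5 in 3 of 3 libraries, at a ratio of 28.5, 33.8 and 35.7. The pooled ratio was 32.5, with an exact (Clopper-Pearson) 95% interval of 27.7 to 38.3 that covers counting error only.

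Itgb3 (chromosome 11, 104608000 to 104670476, plus strand), the beta chain of the alpha v beta 3 receptor and of the platelet fibrinogen receptor, had 0 counts in each of the 3 libraries. By counting error alone this allows up to 0.283 CPM over the libraries together. Against that floor of 3 counts over the group, the pooled count of Itgb1 was 1722-fold higher and that of Itgb5 53-fold higher. These approximate lower bounds leave out the counting error of Itgb1 and Itgb5 themselves. Reads lost in assignment to a gene are not covered by these bounds, because no source used here says how multiply matching reads were handled.

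The alpha chains with RGD-type ligands differed in level. Itgav (chromosome 2, 83724397 to 83806916, plus strand), the alpha v chain, had 80, 68 and 59 counts, equal to 23.8, 16.9 and 18.4 CPM. The mean was 19.7 ± 3.64 CPM (SD, n = 3). Replicate 1 was the highest of the 3. A transcript on the opposite strand, Gm13684, overlaps its exons in GENCODE M21, and no source used here says whether the counting used strand.

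Itga5 (chromosome 15, 103344286 to 103366763, minus strand), the alpha chain of the main fibronectin receptor, had 38, 32 and 17 counts. Its level of 11.3, 7.96 and 5.30 CPM was lowest in replicate 3 and averaged 8.19 ± 3.02 CPM (SD, n = 3). Without replicate 3 the mean was 9.64 CPM. The count of Itgav was above that of Itga5 in 3 of 3 libraries, at a ratio of 2.11, 2.13 and 3.47, and the pooled ratio of 2.38 had an exact 95% interval of 1.84 to 3.09.

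The laminin receptor chains Itga3 and Itga6 were counted at nearly one level. Itga6 (chromosome 2, 71745616 to 71858416, plus strand) had 43, 46 and 32 counts, equal to 12.8, 11.4 and 9.97 CPM, and a mean of 11.4 ± 1.42 CPM (SD, n = 3). Itga3 (chromosome 11, 95044474 to 95076801, minus strand) had 36, 48 and 37 counts, equal to 10.7, 11.9 and 11.5 CPM, and a mean of 11.4 ± 0.62 CPM (SD, n = 3). Both had 121 counts over the 3 libraries. Their ranges overlapped, and the exact 95% interval of their pooled ratio of 1.00 ran from 0.771 to 1.30.

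Vcam1 (chromosome 3, 116109949 to 116129688, minus strand) had 340, 434 and 415 counts. Its level was 101, 108 and 129 CPM, highest in replicate 3, and averaged 113 ± 14.6 CPM (SD, n = 3). Without replicate 3 the mean was 104.6 CPM. Itgb1 exceeded Vcam1 in 3 of 3 libraries, at a pooled ratio of 4.34 with an exact 95% interval of 4.08 to 4.63. An antisense transcript, Gm43109, overlaps Vcam1 exons in GENCODE M21 and had 2 counts in all. Within the overlap, reads of the pair could be told apart only if the counting used strand.

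In descending order of mean CPM the genes stood as Itgb1, Vcam1, Itgav, Itgb5, Itga6, Itga3, Itga5 and Itgb3. The lowest library of the higher gene was above the highest library of the lower one for 5 of the 7 neighbouring pairs. The 2 pairs whose ranges overlapped were Itga6 with Itga3 and Itga3 with Itga5. The gap between Itgav and Itgb5 was narrow, from 16.9 to 16.7 CPM, and the exact 95% interval of the pooled ratio of Itgav to Itgb5, to which Itgb3 adds no count, was 1.05 to 1.61.

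The balance of beta 1 and some of its partners was measured as a ratio of counts within each library. Itgb1 outnumbered the sum of Itga3, Itga5, Itga6 and Itgav at a ratio of 8.11, 10.1 and 11.1 in replicates 1 to 3, with a mean of 9.77 ± 1.51 (SD, n = 3). The pooled ratio of 5166 to 536 counts was 9.64, with an exact 95% interval of 8.82 to 10.6. With every analysed alpha chain known to pair with beta 1 in the sum, an alternative chosen after the data were seen, the mean ratio was 9.30. These are ratios of RNA counts, and the amount of protein was not measured.

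Among the integrin chain genes analysed, the genes described held most of the counts. Of the 5524 counts of the 7 beta chain genes analysed, Itgb1 took 92.7%, 94.1% and 93.5% in replicates 1 to 3, or 93.5% pooled (exact 95% interval 92.8 to 94.2%). Itgb5 took 2.88% (2.45 to 3.35%), and Itgb3 took 0 of the 5524 counts (exact 95% interval 0 to 0.0668%). Of the 635 counts of the 12 alpha chain genes analysed, Itgav took 32.6% (29.0 to 36.4%), Itga3 and Itga6 19.1% each (16.1 to 22.3%) and Itga5 13.7% (11.1 to 16.6%). Together the 4 alpha chains took 89.1%, 84.3% and 78.8% in replicates 1 to 3. The lowest share was in replicate 3.

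**Figure D2:**
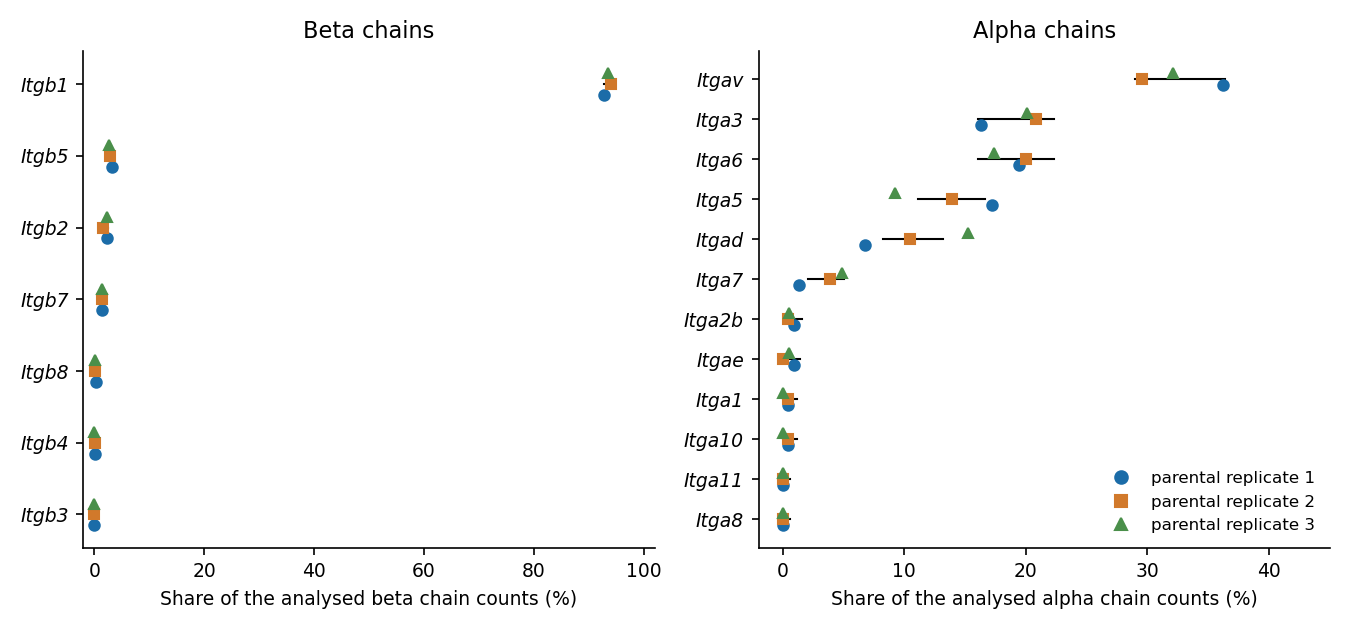
Share of the counts of the 7 beta chain genes analysed (left) and of the 12 alpha chain genes analysed (right) that each gene took, in percent, in parental replicates 1, 2 and 3 (points), with the exact 95% interval of the pooled share as a black line. Itgb1 took 92.7 to 94.1% of these beta chain counts, whereas Itgav, the first of the alpha chains, took 29.6 to 36.2%.

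The remaining chains were mostly near 0. Itgb2 and Itgb7, beta chains typical of leukocytes, had 10.7 ± 2.60 and 7.20 ± 0.51 CPM, and Itgad, an alpha partner of beta 2, had 6.39 ± 2.16 CPM (SD, n = 3). The counts of Itgad were 15, 24 and 28, and those of Itgb2 40, 31 and 40, so both were seen in every library. Cox6a2, on the opposite strand, overlaps Itgad exons in GENCODE M21 and had 51 counts. Gm39091 and 4931431B13Rik, also on the opposite strand, and Gm17831, on the same strand, overlap Itgad exons as well. Ptprc, which encodes the pan-leukocyte marker CD45, had 1 count over the 3 libraries.

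The alpha 7 laminin receptor chain Itga7 had 3, 9 and 9 counts, or 1.98 ± 0.98 CPM (SD, n = 3). Mettl7b, on the opposite strand, overlaps Itga7 exons in GENCODE M21, and whether the counting used strand is not known. Itgb8, another partner of alpha v, had 4, 4 and 1 counts. The hemidesmosome chain Itgb4 had 2, 1 and 0 counts, the platelet chain Itga2b 2, 1 and 1, Itgae, a partner of beta 7, 2, 0 and 1, and the collagen receptor chains Itga1 and Itga10 1, 1 and 0 each. At such counts no order among these chains can be read. Itga8 and Itga11, which also pair with beta 1, had 0 counts. Itgbl1, a secreted protein with beta chain-like repeats and no receptor chain itself, had 17.7 ± 4.27 CPM (SD, n = 3). Itga2, Itga4, Itga9, Itgal, Itgam, Itgax and Itgb6 were not analysed here, so no level is given for the alpha 4 and alpha 9 chains that bind VCAM1.

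Differences between the parental libraries were then tested for the same genes. Of the 8, 7 had enough counts to be tested, and 0 of 7 differed between libraries at an adjusted p below 0.05, where 2.80% of all genes tested did. At an unadjusted p below 0.05, 2 of the 7 passed, Vcam1 and Itga5, beside 1466 of the 11118 genes tested. Vcam1, at 129 CPM in replicate 3 against 101 and 108 CPM, had an adjusted p of 0.0648 by the chi-square test (unadjusted p = 0.00201). Between its highest and lowest library the ratio was 1.28, and its coefficient of variation was 13.0% where counting alone gives 5.02%. Itga5 had a ratio of 2.14 between replicates 1 and 3 and an adjusted p of 0.274 by the same test (unadjusted p = 0.0241). Its coefficient of variation was 36.8%, and counting alone gives 18.6% at its low counts.

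For the other 5 genes the adjusted p ran from 0.457 for Itgav to 0.976 for Itga3. Itgav, with 207 counts in all, had a ratio of 1.41 between its highest and lowest library. Replicate 3, the library that stood apart most often across all genes, was the highest for Vcam1 and the lowest for Itga5. Without it the adjusted p of Vcam1 was 0.904 and that of Itga5 0.742 by the chi-square test. Without replicate 1 these were 0.187 and 0.662, and without replicate 2 they were 0.0833 and 0.134. A test on 2 libraries has less power. A p above the threshold does not show that the libraries were alike.

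**Figure D3:**
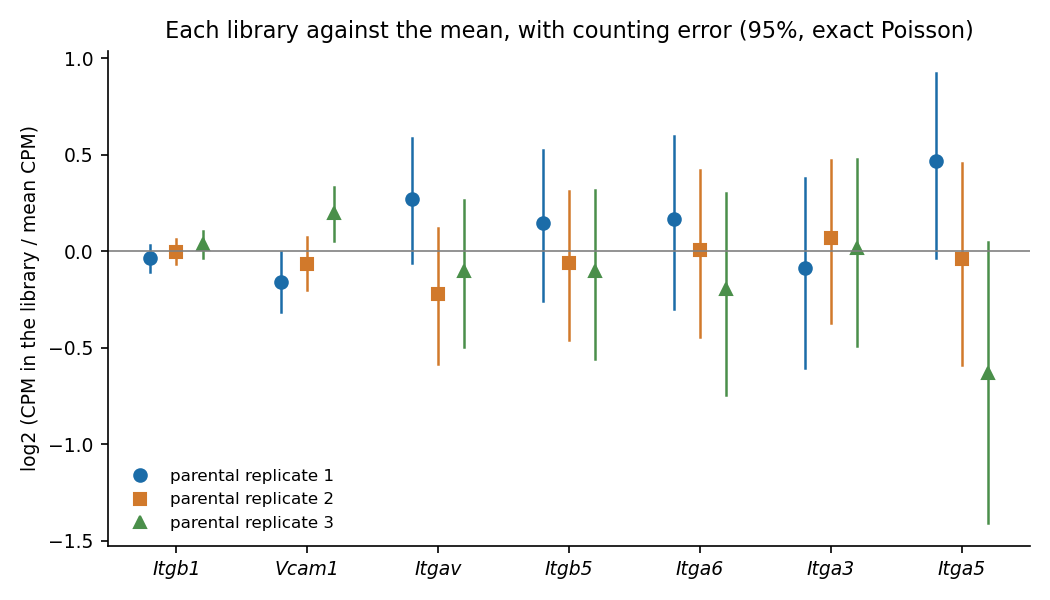
Level of each gene in a library relative to its mean over the 3 parental libraries, as a log2 ratio, with the exact Poisson 95% interval of the count as a vertical line. The intervals are narrow for Itgb1 and widest for Itga5, whose counts were 38, 32 and 17; replicate 3 is high for Vcam1 and low for Itga5.

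Genes that act with these receptors were read from lists, beginning with ligands. For every list below, the shares over all 24181 genes are 49.5% at 1 CPM, 31.2% at 10 CPM and 8.54% at 100 CPM. Of all genes tested, 2.80% differed between libraries. With at most 2 genes called in a list, no list is read as departing from that share. Of 14 genes analysed of the RGD-type ligand list, 10 reached 1 CPM, 8 reached 10 CPM and 3 reached 100 CPM, with a median of 13.7 CPM. Whether each listed ligand carries the RGD tripeptide was not checked here. Osteopontin (Spp1), with 395 ± 5.003 CPM, the matricellular gene Ccn1, with 389 ± 15.8 CPM, and Mfge8, with 212 ± 18.6 CPM (SD, n = 3), were the highest. The gene of fibronectin, Fn1, had 25.9 ± 3.04 CPM (SD, n = 3), and that of vitronectin, Vtn, 1 count in all. One ligand gene of 10 tested differed between libraries, thrombospondin 1 (Thbs1), at 58.9, 66.7 and 38.01 CPM, lowest in replicate 3 (adjusted p = 0.000156, chi-square test).

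The laminin chains, ligands of the receptors with alpha 3 and alpha 6, were counted unevenly. The beta chain Lamb1 had 33.5 ± 0.68 CPM and the gamma chain Lamc1 had 18.2 ± 1.06 CPM (SD, n = 3). Of the alpha chains, Lama1, Lama2 and Lama3 had 0 counts, Lama4 had 1, and Lama5 was not analysed here. A laminin trimer holds 1 alpha, 1 beta and 1 gamma chain. Of 9 laminin genes analysed, 4 were at 1 CPM or more, and 0 of the 4 tested differed between libraries.

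Cytoplasmic activators and adaptors of integrins were widely counted. Of 35 genes, 31 reached 1 CPM, 28 reached 10 CPM and 7 reached 100 CPM, with a median of 29.4 CPM. The small GTPases Rap1b and Rap1a, which promote integrin activation, had 338 ± 18.7 and 201 ± 13.8 CPM (SD, n = 3). Kindlin-2 (Fermt2), which binds the beta chain tail, had 143 ± 8.40 CPM (SD, n = 3), while the epithelial kindlin Fermt1 had 0 counts and the blood cell kindlin Fermt3 had 1. Talin 1 (Tln1), the other tail-binding activator, had 97.2 ± 12.7 CPM, against 19.7 ± 1.499 CPM for Tln2 (SD, n = 3). The integrin-linked kinase Ilk had 137 ± 3.29 CPM and its partners Lims1 and Parva 134 ± 12.4 and 78.2 ± 5.48 CPM (SD, n = 3). The adaptor Crk was the 1 of 30 tested that differed between libraries, at 81.3, 76.1 and 56.1 CPM (adjusted p = 0.0148, chi-square test).

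Among 20 genes of integrin inhibition, trafficking and membrane partners, 18 reached 1 CPM and 12 reached 100 CPM, with a median of 116 CPM. The tetraspanin Cd63 had 1901 ± 64.3 CPM, basigin (Bsg) 663 ± 38.3 CPM and Slc3a2, which encodes the CD98 heavy chain that associates with beta 1, 517 ± 21.9 CPM (SD, n = 3). Cd151, the tetraspanin that binds alpha 3 and alpha 6 receptors, had 145 ± 8.91 CPM and Itgb1bp1, which binds the beta 1 tail, 105 ± 5.44 CPM (SD, n = 3). Of 18 tested, 2 differed between libraries, Cd63 (adjusted p = 0.00505) and Bsg (adjusted p = 0.0151, chi-square test). Both were highest in replicate 1 and lowest in replicate 3, with Cd63 at 1974 and 1852 CPM and Bsg at 702 and 626 CPM there.

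Vcam1 was the highest of the analysed genes in the list of immunoglobulin family adhesion genes, which leaves out some genes of that family, such as Bsg. Of 14 analysed of 18 listed, 5 reached 1 CPM and 1, Vcam1, reached 100 CPM, and the median was 0.286 CPM. Nectin3 followed with 55.1 ± 6.72 CPM and Ncam1 with 19.1 ± 1.97 CPM (SD, n = 3). Icam1, the ligand of beta 2 integrins, and Madcam1, the ligand of the alpha 4 beta 7 integrin, had 0 counts. Of the proteins that bind VCAM1 or its partners, the linker genes Rdx and Msn had 356 ± 14.6 and 301 ± 24.5 CPM, their relative Ezr 16.9 ± 2.73 CPM, and the sheddase gene Adam17 24.0 ± 2.89 CPM (SD, n = 3). Of 6 such genes tested, Msn differed between libraries, at 308, 274 and 321 CPM (adjusted p = 0.0151, chi-square test). The list of regulators of Vcam1 holds NF-kB and IRF genes and also Sp1, Gata2, Gata6 and Tnfrsf1a, and each of its 12 genes reached 1 CPM, led by Nfkbia with 444 ± 9.46 CPM, Rela with 113 ± 6.47 CPM and Nfkb2 with 68.8 ± 4.38 CPM (SD, n = 3), and 0 of 11 tested differed between libraries.

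**Figure D4:**
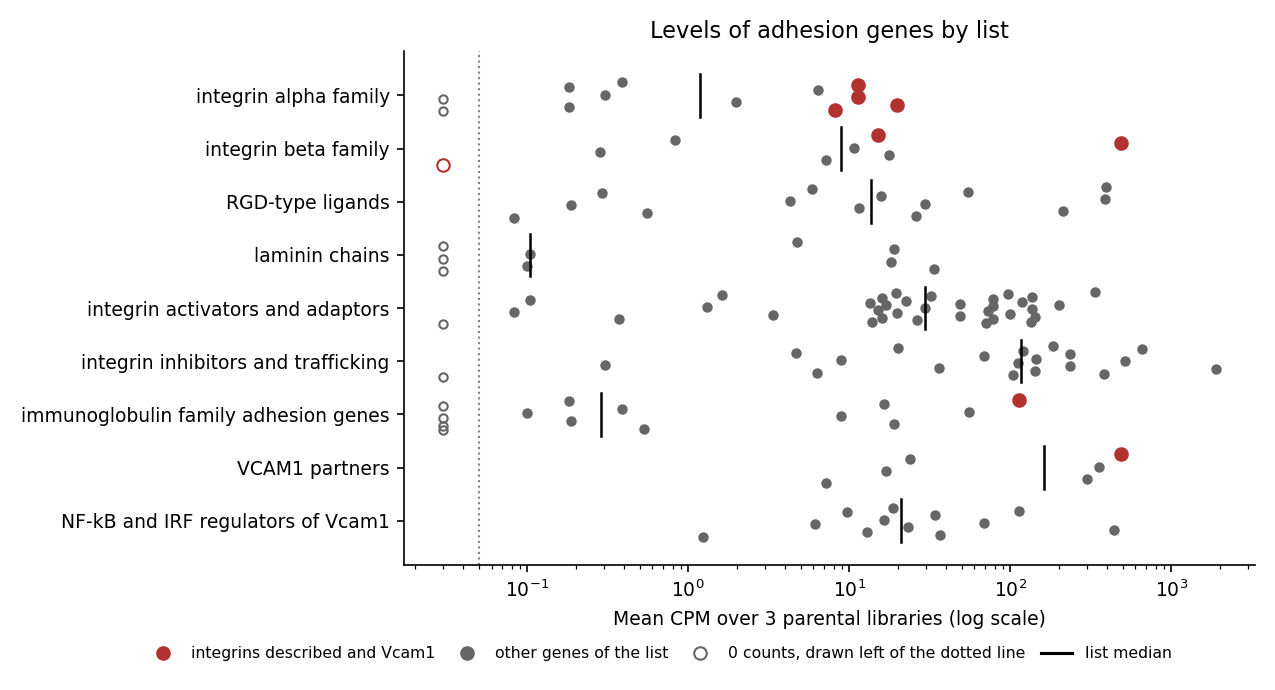
Mean CPM over the 3 parental libraries (log axis) of every analysed gene of each list, with the integrins described and Vcam1 in red, other genes in grey, and the list median as a vertical black line. Genes with 0 counts are open circles left of the dotted line; Itgb1 and Vcam1 lie far to the right of the medians of their families.

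Markers of other cells were read beside Vcam1 and the leukocyte-type chains. Of 4 endothelial markers analysed of 7 listed, 0 were at 1 CPM, and their summed level was 0.312 to 1.19 CPM per library, so the markers of the cell type best known for VCAM1 were near 0. Of 3 platelet markers, 0 were at 1 CPM. Of 7 fibroblast markers, 4 were at 1 CPM or more, and the summed level of the 7 was 173 to 197 CPM. Most of it came from Col3a1, at 115 ± 8.80 CPM, and Dcn, at 52.1 ± 5.48 CPM (SD, n = 3). Pdgfra had 12.8 ± 2.69 CPM and Col1a1 3.58 ± 1.28 CPM (SD, n = 3), while Col1a2, Pdgfrb and Lum had 11, 7 and 1 counts in all. The 3 leukocyte markers analysed of 9 listed were Ptprc, Itgb2 and Itgb7, and their sum of 14.7 to 20.2 CPM came almost wholly from the integrins. Of the 9 epithelial markers listed, 3 were analysed, and Krt8, Krt19 and Itgb4 had 1, 1 and 3 counts in all, so these markers of the labelled carcinoma type were near 0 in the parental libraries.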

How the data were processed

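The deposited table holds whole-number counts per gene and barcode, which the authors made from untrimmed reads on GRCm38 with GENCODE M25 (tools named in the file headers: Picard 2.18.26, Drop-seq tools 1.12, STAR 2.7.5b). Intervals, floors and chi-square p-values cover counting error only and take each count as a separate molecule. No source used here says whether molecular identifiers were collapsed. Without that step the intervals could be too narrow and the floors and p-values too low. The deposited plate annotation names 3 barcodes WT with replicate numbers, matched to the parental samples. It names 6 others as 2 sets of 3, which no label ties to the 3 STING-N153S samples, so 6 columns were not used and the planned edgeR comparison was not run.

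The genes and lists were chosen with earlier results of these data known. The text names all 8 genes, the integrin chains and VCAM1 partners with a row, the highest genes of each list and those that differed between libraries. Other genes (Fn1, Vtn, Tln1, Tln2, Ilk, Lims1, Parva, Fermt1, Fermt3, Cd151, Itgb1bp1, Icam1, Madcam1, Lama genes and markers) were picked after their values were seen. A gene that the naming rule takes is not reported here. Likeness of pattern was not computed, since it needs 6 libraries.

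CPM used library totals. Libraries were compared by a chi-square test with median-ratio scaling, where every library's expected count was 5 or higher. The test was run on simulated counts with Poisson error and planted fold changes. These held no other spread between libraries, so the check does not cover such spread. Positions and overlaps are from GENCODE M21 (GRCm38). Alternatives used edgeR 4.0.16 and DESeq2 1.42.0 in R 4.3.3. Other steps used scipy 1.17.1, pandas 2.3.3 and numpy 2.4.6 in Python 3.11.15.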

Additional observations from a re-analysis of the deposited data

How the results depend on the processing

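Of the alternatives for the number of genes differing between libraries (311), library totals gave 286, edgeR scaling (TMM) 289 and other filters 247 to 274. DESeq2 size factors are the median-ratio scaling of the main test again, so their 311 is no separate check. Leaving out 1 library gave 61 to 274, the 61 without parental replicate 3. Among the 8 genes, 0 differed under each of these alternatives. The adjusted p of Vcam1 ran from 0.0634 with library totals to 0.904 without replicate 3, where a test on 2 libraries also has less power. Of 56 levels of the 8 genes under other scalings or without 1 library, 53 stayed within 1 SD. The exceptions were Itgb1, Itgb5 and Itga3 once the 20 highest genes were dropped from the totals, a step that raises every other gene. For levels without 1 library the outcome was fixed in advance, since leaving out 1 of 3 libraries cannot move a mean by 1 SD. It was also fixed for Itgb3, which had 0 counts. Only the other scalings of the genes with counts could have moved a level beyond 1 SD. Leaving out 1 library gave 9.11 to 10.6 for the ratio of Itgb1 to the 4 alpha chains. No paired analysis was possible because the STING-N153S samples had no mapped columns. The 4 alpha chains rest on 87 to 207 counts each over 3 libraries, and Itgb5 on 159.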

Other observations

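Matrix receptors that are not integrins were read from a list of 16 genes written after the integrin values were seen. Of 14 analysed, 12 reached 1 CPM, 10 reached 10 CPM and 6 reached 100 CPM, with a median of 68.7 CPM. The laminin-binding ribosomal protein gene Rpsa had 998 ± 29.4 CPM (SD, n = 3). Cd47, whose product binds thrombospondin and associates with alpha v beta 3, had 186 ± 8.68 CPM, and the hyaluronan receptor Cd44 had 178 ± 12.7 CPM (SD, n = 3). Of the syndecans, heparan sulphate proteoglycans that act with integrins, Sdc2 had 167 ± 5.03 CPM, Sdc4 149 ± 10.02 CPM and Sdc1 73.2 ± 2.22 CPM (SD, n = 3), while Sdc3 had 9 counts in all. The collagen receptor Ddr2 stood at 46.4 ± 2.12 CPM and its relative Ddr1 at 3.30 ± 0.84 CPM (SD, n = 3), and the count of Ddr2 was higher in 3 of 3 libraries. Of the 12 tested, 0 differed between the libraries at an adjusted p below 0.05 by the chi-square test.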
